A study of Mus musculus with 9 samples.

Results

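Mouse satellite cells at P0 in a medium conditioned by T cells were compared with the same kind of culture in F10 medium. The comparison rests on 2 of the 9 samples of the series, 1 library for each medium, and covers 529 genes out of the 11148 rows of the deposited table. Satellite cells are the stem cells of skeletal muscle. Both cultures came from limb skeletal muscle of C57/BL6/DBA mice aged 1 to 3 days, with males and females pooled, and were grown on collagen-coated dishes. The labels call the control F10 basal medium and give it no serum or FGF. T cell medium was an equal mixture (50%) of T cell medium and F10 medium carrying 15% FBS, with FGF at 2.5 ng/ml. Serum and FGF in the control are therefore not known, and their part in the difference cannot be told apart from that of the T cell products. The labels do not say how many animals were pooled, or whether both media were applied to cells of 1 preparation.

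T cells release interferon-γ, TNF and interleukins into their medium. Interferon-γ binds a receptor of 2 kinds of chain and switches on a set of genes for antiviral defence, antigen presentation and cell death, together with feedback inhibitors of the SOCS family. TNF and interleukin-1 act mainly through NF-κB, which controls inflammatory regulators and matrix-degrading proteases. Satellite cells in culture either divide as myoblasts or leave the cycle and form myotubes that carry the contractile apparatus. In muscle they lie under a basement membrane whose main network is collagen IV.

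Levels are RPKM, reads scaled to the length of the gene model and to library depth. The file headers number 2 columns for each library, and their mean was used as 1 value, because between these columns the chi-square per row was 0.461 to 0.495 in the 9 libraries, where independent sampling gives 1, and between the F10 and T cell libraries it was 9.51 (5579 rows). Depth was recovered from the steps of the low values, at 14.77 M reads in the first column of the F10 library and 13.39 M reads in that of the T cell library, within the range of 12.95 to 18.2 M reads over the series. Many row names of the table do not go with their values, and genes are named here only at the starts of 8 chromosomes (16, 19, 8, 9, 5, 3, 18 and 17). In these stretches 18 of 19 rows whose names fit universally expressed gene families (94.7%) reached 1 RPKM, against 46 of 146 (31.5%) elsewhere. The row that did not was Rpl39l. Rows were picked by the pattern of the name, which also took in the kinase gene Rps6kb2. The stretches had been set as those where names fit values in this same table. The contrast with the rows elsewhere is therefore no independent check of the names. The rows picked in the stretches lay on chromosomes 16, 19 and 3 only, so the names on chromosomes 8, 9, 5, 18 and 17 were not checked in this way. Chromosome 16 holds 308 of the 529 genes, and its names are not all certain. Sod1, an abundant antioxidant enzyme in most cells, was at only 3.10 RPKM in F10 and 1.85 in T cell medium, so single names there may be wrong or their levels too low. Of 768 rows in the stretches, 529 reached 1 RPKM in at least 1 of the 2 libraries, 204 were above 0 but below 1 RPKM in both, and 35 were at 0 in both. Pax7, Myod1 and the other defining genes of satellite cells lie outside the stretches, so the labelled cell type was not checked here, except for Boc, a cell surface coreceptor that promotes myogenic differentiation, at 5.24 RPKM in F10 and 3.29 in T cell medium.

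Of the 529 genes, 19 (3.59%) had at least a 2-fold excess and 7 (1.32%) at least a 2-fold deficit in T cell relative to F10 medium on the log2(RPKM + 1) scale. Over all 3401 rows of the table at 1 RPKM or more, named or not, the shares were 1.56% higher (53 rows) and 0.529% lower (18 rows). Chromosome 16, where the low Sod1 level leaves names in doubt, carries 10 of the 19 higher genes and 3 of the 7 lower ones. The cluster of Dtx3l, Parp9 and Parp14 is among the higher ones. With 1 library for each medium these differences have no replicate check, and no p-value is given. Of the 19 higher genes, 8 were below 1 RPKM in F10 medium and entered only through T cell medium, so that they had to differ. Of the 7 lower genes, 1, Ctsw, was below 1 RPKM in T cell medium. Among the 497 genes at 1 RPKM or more in both libraries, the numbers were 11 upward and 6 downward. Most genes were nearly level, with a median log2 difference of -0.03 over the 529, a 5th to 95th percentile range of -0.53 to 0.80, and 375 genes (70.9%) within 0.25 of 0. At 20 RPKM or more, where the median counting error was 0.05 on the log2 scale, 4 of 130 genes exceeded 2-fold upward and 2 downward. The 4 were Actn3, Srl, Steap1 and Cyp51, and the 2 were Col4a1 and Col4a2.

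**Figure D1:**
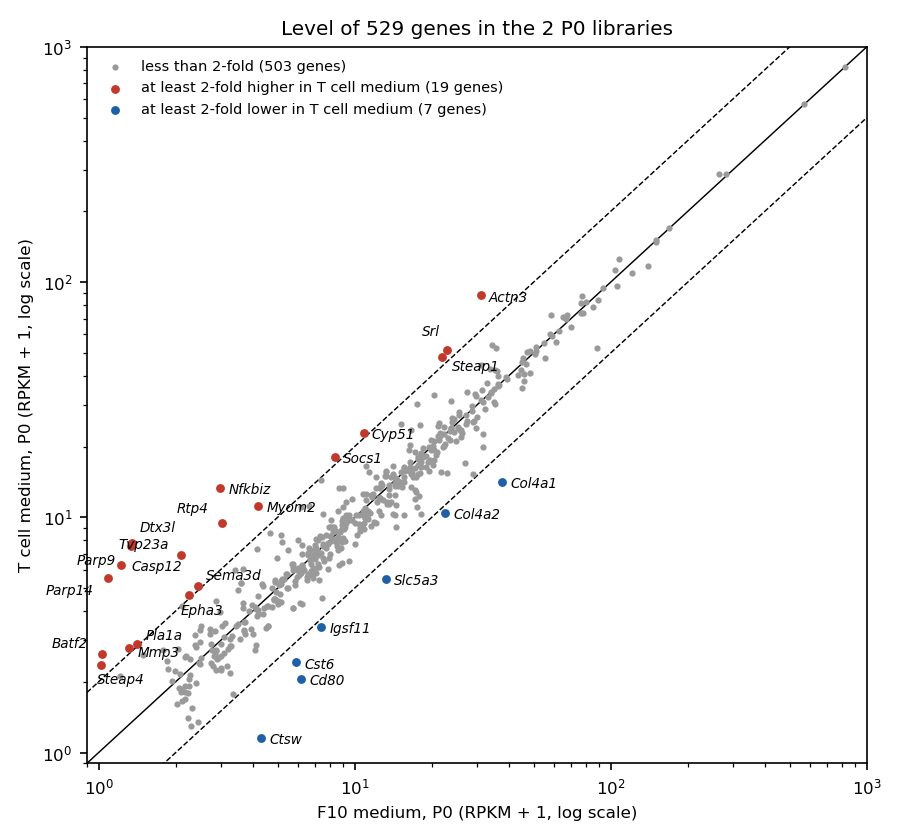
Each point is 1 gene, with its level in F10 medium on the x axis and in T cell medium on the y axis, both as RPKM + 1 on log scales. The solid line marks equal levels and the dashed lines 2-fold differences, and most of the 529 genes lie near the solid line while 19 lie on or above the upper dashed line and 7 on or below the lower one.

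Fold values below are ratios of RPKM, each with a 95% counting interval, the exact (Clopper-Pearson) interval of the reads of 1 library given the sum of both. Such an interval covers counting error only, and reads without molecular identifiers are not independent molecules. In bulk RNA, a difference in the number of cells of 1 type and a difference in RNA per cell cannot be told apart. The 2-fold counts of gene lists below stand beside the shares over all rows, 1.56% higher and 0.529% lower. A short list without a 2-fold gene is near these shares.

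The 4 genes that led the ranking on the log2(RPKM + 1) scale, Dtx3l, Parp9, Casp12 and Parp14, were on the list of the interferon response. Of 28 genes listed for it, 10 lay in the named stretches, and 7 of these 10 were at least 2-fold higher while none had a deficit of that size. The median log2 difference over the 10 was 1.49, beside -0.03 over the 529 genes. These sets are unlike, since 3 of the 10 were under 1 RPKM in both libraries, while all 529 reached it in at least 1. Of the 7, 5 had reached 1 RPKM only in T cell medium. Summed over the 10, the level was 10.5 RPKM in F10 and 51.3 in T cell medium. The list was drawn up with earlier results of these data known and is no independent evidence of its direction.

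Dtx3l, Parp9 and Parp14 form 1 cluster on chromosome 16. Dtx3l encodes a ubiquitin ligase, and Parp9 encodes its partner, an ADP-ribosyltransferase family member that acts with it in the interferon response. The annotated starts of both genes lie 681 bases apart on opposite strands. The RefSeq promoter window of Dtx3l (GRCm38.p6, chr16:35938978-35939277, minus strand, from 250 bases before to 50 bases after the start) is shown because this gene pair had the largest differences on the log2(RPKM + 1) scale. The window carries no capitals, since none of the motifs searched for was found in it.
Dtx3l: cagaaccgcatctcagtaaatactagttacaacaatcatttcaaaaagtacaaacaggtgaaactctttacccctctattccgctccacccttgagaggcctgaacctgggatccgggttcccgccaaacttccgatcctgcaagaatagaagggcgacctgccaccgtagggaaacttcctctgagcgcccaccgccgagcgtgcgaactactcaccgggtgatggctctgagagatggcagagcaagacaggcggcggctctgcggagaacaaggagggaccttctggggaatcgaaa
Dtx3l was at 0.331 and 0.361 RPKM in the columns of the F10 library and at 6.64 and 6.97 in those of the T cell library. Their means were 0.346 and 6.81 RPKM, from 28 and 500 reads. Parp9 was at 0.341 RPKM in F10 and 6.57 in T cell medium (24 and 410 reads), which gave a fold of 19.3 (12.5 to 29.8). Parp14, a further interferon-induced ADP-ribosyltransferase, lies 66.9 kb from Parp9. It was at 0.0912 RPKM in F10 and 4.52 in T cell medium (12 and 540 reads), which made 49.6-fold (28.2 to 96.7). All 3 genes of the cluster were thus close to undetected in F10 medium and at 4 to 7 RPKM in T cell medium. Their differences on the log2(RPKM + 1) scale were 2.54, 2.50 and 2.34.

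Casp12, a caspase gene of the inflammatory caspase cluster on chromosome 9, was at 0.194 and 0.25 RPKM in the F10 columns and 5.12 and 5.41 in the T cell columns. The means of 0.222 and 5.26 RPKM (12 and 259 reads) gave a fold of 23.7 (13.4 to 46.7). Its neighbours were nearly silent in both media. Casp4, a sensor of intracellular lipopolysaccharide, had 0 reads in F10 and 10 in T cell medium (0.220 RPKM). Against a floor of 3 reads in the F10 library the ratio was 3.68, which leaves out the counting error of the 10 reads. Casp1, the protease that matures interleukin-1β, had 0 and 2 reads, both below that floor. Of these 3 caspase genes, Casp12 alone reached 1 RPKM in T cell medium.

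Socs1, the inducible inhibitor of JAK kinases that ends interferon-γ signalling, was the most abundant of the list. It was at 7.27 and 7.50 RPKM in the F10 columns and 17.9 and 16.3 in the T cell columns, and its mean was 7.38 against 17.1 RPKM (128 and 268 reads), a fold of 2.32 (1.86 to 2.87). Rtp4, an interferon-induced regulator of viral replication, was at 2.04 RPKM in F10 and 8.45 in T cell medium (46 and 170 reads), which gave a fold of 4.14 (2.93 to 5.78). It shares 13.9% of its exon bases with another annotated gene, and since no source used here gives the strand setting of the counts, reads of the 2 cannot be told apart. Batf2, a transcription factor gene induced by interferon-γ, was at 0.0293 and 1.62 RPKM, or about 1 read against 52, so the ratio of 55.4 has an interval of 9.85 to 2309. Ciita, the master regulator of MHC class II genes, stayed below 1 RPKM in both libraries but had about 1 read (0.0135 RPKM) in F10 and 43 reads (0.637 RPKM) in T cell medium, a ratio of 47.3 (8.07 to 1917). The counting interval lay above 1 for each of the 10 genes other than Casp1, for which no ratio is given.

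Promoter windows of Casp12 (chr9:5345226-5345525, plus strand) and Socs1 (chr16:10785487-10785786, minus strand) from RefSeq on GRCm38.p6 are shown because, of the interferon response genes with a window in the table, these held matches of motifs of the pathway. Capitals mark every match of a searched motif.
Casp12: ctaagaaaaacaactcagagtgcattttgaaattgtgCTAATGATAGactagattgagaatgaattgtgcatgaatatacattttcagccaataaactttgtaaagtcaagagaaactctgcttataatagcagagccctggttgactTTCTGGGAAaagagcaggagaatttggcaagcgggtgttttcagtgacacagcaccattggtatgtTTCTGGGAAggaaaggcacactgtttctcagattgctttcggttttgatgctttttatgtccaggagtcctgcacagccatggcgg
Socs1: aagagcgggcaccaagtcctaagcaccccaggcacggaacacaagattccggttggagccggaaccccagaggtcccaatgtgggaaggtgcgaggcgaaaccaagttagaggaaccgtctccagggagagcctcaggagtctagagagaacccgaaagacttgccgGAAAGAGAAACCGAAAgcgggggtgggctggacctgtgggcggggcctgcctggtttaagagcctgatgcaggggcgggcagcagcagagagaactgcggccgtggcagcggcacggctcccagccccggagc
In the Casp12 window the letters TTCTGGGAA occur at -102 and -36 from the start. They match the interferon-γ-activated site (GAS) motif, TTCNNNGAA on either strand, which 8.47% of the 27025 promoter windows of the table hold. A match of the MEF2 motif, read as CTA, any 4 bases and TAG, begins at -213, and 3.70% of the windows hold 1. In the Socs1 window 2 overlapping matches of the interferon-stimulated response element, TTTC, any 2 bases and TTTC on either strand, begin at -83 and -77, and 3.49% of the windows hold this motif. A match is a description of these letters and not a shown binding site. The NF-κB motif, searched as GGG, any 2 bases and TTTCC on both strands, is held by 1.62% of the windows and was in neither. Of the 30 genes with the largest differences, 17 had a window in the table.

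Receptors and relays of cytokine signals differed by less. Of 12 listed genes in the named stretches, 1, Socs1, was at least 2-fold higher while none had a deficit of that size, with a median log2 difference of 0.28 over the 12. Chromosome 16 holds a cluster of 4 interferon and interleukin-10 family receptor genes. Ifngr2, the second chain of the interferon-γ receptor, was at 2.61 RPKM in F10 and 4.26 in T cell medium (122 and 181 reads), which gave a fold of 1.64 (1.29 to 2.08). Ifnar2, a chain of the type I interferon receptor, was at 2.60 and 4.28 RPKM, a fold of 1.65 (1.31 to 2.10). Its partner chain Ifnar1 was at 6.77 and 7.41 RPKM, a fold of 1.09 (0.971 to 1.23), an interval that includes 1. For Il10rb, a chain shared by receptors of interleukin-10 and related cytokines, the levels were 1.20 and 1.57 RPKM (1.32, 0.941 to 1.88). Il1rap, the coreceptor for interleukin-1, stood at 0.778 RPKM in F10 and 1.72 in T cell medium (125 and 251 reads), which gave a fold of 2.21 (1.78 to 2.77), which on the log2(RPKM + 1) scale was 0.61. Litaf, a lysosomal membrane protein gene named for its induction by lipopolysaccharide, was at 16.6 and 29.4 RPKM (0.79 on the log2 scale). Bcl6, a transcriptional repressor, was at 5.68 and 6.24 RPKM. The cytokine gene Il7, at 0.313 and 0.299 RPKM, and the kinase gene Map3k8, at 0.117 and 0.399, did not reach 1 RPKM.

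Of 9 genes of the NF-κB list in the named stretches, 3 (Nfkbiz, Steap4 and Mmp3) were at least 2-fold higher. None had a deficit of that size. The median was 0.32 over the 9 and 0.94 over the 6 that reached 1 RPKM in at least 1 library. Of the 6 that reached 1 RPKM, 3 did so only in T cell medium, Steap4 and Mmp3 among them, so that these had to differ. Nfkbiz, which encodes the inducible nuclear inhibitor-like protein IκBζ that acts on secondary NF-κB targets, was at 1.97 and 1.99 RPKM in the F10 columns and 12.4 and 12.2 in the T cell columns. The fold was 6.23 (5.22 to 7.54), from 140 and 794 reads. Steap4, a metalloreductase gene induced by TNF in adipose tissue, was at 0.0225 and 1.35 RPKM, about 1 read against 54 (60.0, 10.2 to 2397). Rela, the p65 subunit itself, was nearly level at 23.0 and 25.3 RPKM. Birc2, at 5.23 and 6.65 RPKM, and Birc3, at 0.402 and 0.648 RPKM, encode inhibitors of apoptosis that dock on the TNF receptor complex. The ratio for Birc3, a textbook NF-κB target, was 1.61 (1.00 to 2.77).

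The matrix metalloprotease genes on chromosome 9 were scarce in both media. Mmp3, stromelysin-1, was at 0.313 RPKM in F10 and 1.78 in T cell medium (8 and 41 reads), which gave a fold of 5.67 (2.62 to 14.0). Mmp13, a collagenase, was at 0.489 and 1.6 RPKM (18 and 55 reads), a fold of 3.28 (1.95 to 6.10). Mmp10, stromelysin-2, lies 56.5 kb from Mmp3 between start sites and had 12 reads in F10 against 10 in T cell medium (0.490 and 0.432 RPKM). Its fold of 0.882 (0.356 to 2.32) lay apart from that of Mmp3 by counting error, while its interval overlapped that of Mmp13. Mmp8 and Mmp12 were at or below 2 reads in both. Of the ADAMTS proteases, which cut proteoglycans, Adamts1 was at 5.01 and 7.0 RPKM and Adamts5 at 0.385 and 0.732 RPKM (1.90, 1.30 to 2.83). In the protease list as a whole, 1 of 7 genes in the stretches was at least 2-fold higher. That gene was Mmp3. Along with Mmp10 and Mmp13 it is also counted in the NF-κB list, so the 2 lists are not separate results. Of the 3 protease genes that reached 1 RPKM, 2, Mmp3 and Mmp13, did so only in T cell medium.

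**Figure D2:**
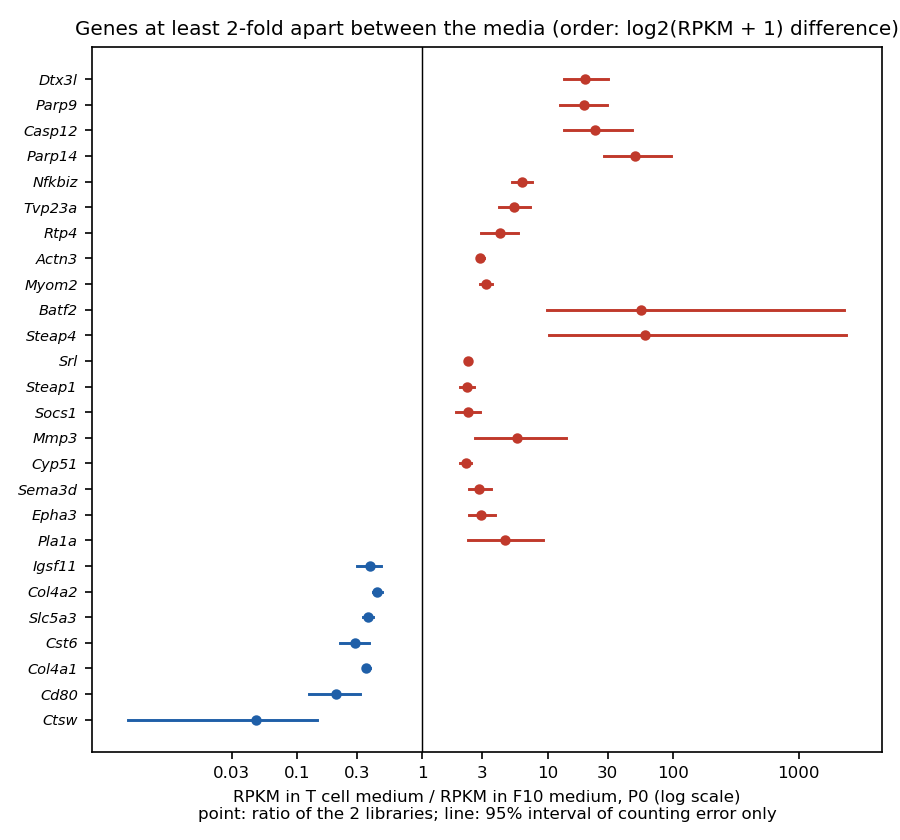
The ratio of RPKM in T cell medium to that in F10 medium is drawn on a log x axis for each of the 26 genes at least 2-fold apart, with genes on the y axis in the order of their log2(RPKM + 1) difference. Horizontal lines are 95% intervals of counting error only, narrow for the abundant Actn3 (2.70 to 3.08) and wide for Batf2 and Steap4, which had about 1 read in F10 medium.

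The sarcomere genes Actn3 and Myom2 and the calcium store gene Srl were higher in T cell medium. Of 10 listed muscle genes in the named stretches, 3 were at least 2-fold higher while none had a deficit of that size. The median was 0.29 over the 10 and 0.56 over the 7 that reached 1 RPKM in at least 1 library. Actn3, the α-actinin of fast fibres that crosslinks actin at the Z disc, was at 30.7 and 29.6 RPKM in the F10 columns and 87.7 and 86.1 in the T cell columns. With 1236 and 3230 reads, its fold was 2.89 (2.70 to 3.08). Myom2, which encodes the M-band protein myomesin-2, was at 3.19 RPKM in F10 and 10.2 in T cell medium (400 and 1160 reads), which gave a fold of 3.20 (2.85 to 3.59). Srl encodes sarcalumenin, a calcium-binding protein of the sarcoplasmic reticulum, and was at 21.9 and 50.4 RPKM (1650 and 3444 reads), a fold of 2.30 (2.17 to 2.44). All 3 are products of differentiated fibres. Pkia, an inhibitor of protein kinase A that is abundant in muscle, was at 34.6 and 51.5 RPKM, a fold of 1.49 (1.4 to 1.58). Svil, which encodes the actin- and membrane-binding supervillin, was at 7.06 and 8.79 RPKM (1.25, 1.15 to 1.35). Popdc2, a membrane protein gene of heart and skeletal muscle, was at 1.73 and 2.35 RPKM, with an interval of 0.956 to 1.97 that includes 1. Pygm, muscle glycogen phosphorylase, was at 11.8 and 12.8 RPKM, a fold of 1.09 (0.962 to 1.23). The muscle genes therefore did not share 1 size of difference, from about 3-fold for the sarcomere genes Actn3 and Myom2 to near equality for Pygm. Fbxo40, a muscle ubiquitin ligase component, had 15 and 8 reads, and the smooth muscle gene Mylk was at 0.315 and 0.298 RPKM.

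Collagen IV was lower in T cell medium. Col4a1 and Col4a2 encode the chains that assemble with each other into the most common collagen IV trimer, and their annotated starts lie 21 bases apart on opposite strands of chromosome 8. Their RefSeq windows (GRCm38.p6, chr8:11312777-11313076 on the minus strand and chr8:11312555-11312854 on the plus strand) share 78 bases and are shown because both genes of this head-to-head pair differed in 1 direction. None of the motifs searched for was found in them.
Col4a1: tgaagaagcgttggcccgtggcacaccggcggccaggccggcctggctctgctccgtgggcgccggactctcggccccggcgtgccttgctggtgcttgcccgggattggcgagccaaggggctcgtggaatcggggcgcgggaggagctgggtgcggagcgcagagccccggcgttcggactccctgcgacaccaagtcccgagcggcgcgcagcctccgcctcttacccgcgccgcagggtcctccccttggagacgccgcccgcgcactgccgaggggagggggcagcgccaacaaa
Col4a2: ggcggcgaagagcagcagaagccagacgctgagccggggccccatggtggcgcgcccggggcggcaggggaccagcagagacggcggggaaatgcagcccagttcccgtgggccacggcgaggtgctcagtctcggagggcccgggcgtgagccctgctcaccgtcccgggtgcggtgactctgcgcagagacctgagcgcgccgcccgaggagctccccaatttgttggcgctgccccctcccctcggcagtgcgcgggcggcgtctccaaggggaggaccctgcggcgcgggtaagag
Col4a1 was at 37.1 and 36.4 RPKM in the F10 columns and at 13.3 and 13 in the T cell columns, from 3552 and 1150 reads. It was 2.80-fold higher in F10 medium (2.62 to 2.99). Col4a2 was at 21.6 RPKM in F10 and 9.42 in T cell medium (2029 and 800 reads), 2.30-fold higher in F10 medium (2.12 to 2.50). The intervals of the pair do not overlap, so the difference of Col4a1 was the larger beyond counting error.

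Other matrix genes differed by less than 2-fold. Of 9 listed matrix genes in the stretches, 2 (the collagen IV pair) were at least 2-fold lower and none was at least 2-fold higher, with a median of -0.23. Ltbp3, which tethers latent TGF-β to the matrix, was at 30.8 RPKM in F10 and 21.7 in T cell medium, 1.41-fold higher in F10 medium (1.32 to 1.51). Efemp2, which encodes the elastic fibre protein fibulin-4, was level at 30.7 and 29.8 RPKM. Col8a1, a short-chain collagen, was at 7.62 and 9.69 RPKM (1.27, 1.13 to 1.43). Fstl1, a secreted glycoprotein that binds BMP ligands, was at 30.2 RPKM in F10 and 43.3 in T cell medium, which gave a fold of 1.44 (1.35 to 1.52). Abundant matrix genes thus lay on both sides of 0. Ccdc80, at 1.02 and 0.614 RPKM, and Cd248, at 1.27 and 0.925 RPKM, are stromal genes near the lower limit.

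Among surface molecules of the immunoglobulin and adhesion families, 2 of 15 genes in the stretches were at least 2-fold lower and none was at least 2-fold higher, with a median of -0.10 over the 15. Cd80 encodes B7-1, the costimulatory ligand for CD28 and CTLA-4 on T cells. It was at 5.02 and 5.38 RPKM in the F10 columns and 1.05 in both T cell columns (125 and 23 reads as means), 4.93-fold higher in F10 medium (3.14 to 8.05). Its RefSeq window (GRCm38.p6, chr16:38458683-38458982, plus strand) is shown because its direction was opposite to that of the interferon response genes. Capitals mark a MEF2 match at -190 and the myogenic E-box CAGCTG at -134. That E-box is held by 16.1% of all windows.
Cd80: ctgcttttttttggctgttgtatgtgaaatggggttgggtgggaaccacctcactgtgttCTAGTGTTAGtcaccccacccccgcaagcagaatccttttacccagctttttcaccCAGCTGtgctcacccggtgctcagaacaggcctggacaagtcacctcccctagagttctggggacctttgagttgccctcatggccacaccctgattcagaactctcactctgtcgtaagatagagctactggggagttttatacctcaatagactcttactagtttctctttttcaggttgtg
The related costimulator Cd86 had 0 reads in both libraries. Igsf11, an adhesion protein of the immunoglobulin superfamily, was at 6.41 RPKM in F10 and 2.43 in T cell medium (328 and 112 reads), 2.64-fold higher in F10 medium (2.14 to 3.32). Jam2, a junctional adhesion molecule, was at 17.3 and 9.29 RPKM (1434 and 700 reads), 1.86-fold higher in F10 medium (1.69 to 2.04). Alcam, a homophilic adhesion molecule, was at 21.9 and 14.4 RPKM, 1.52-fold higher in F10 medium (1.42 to 1.63). Boc, named above, had an interval of 1.33 to 1.92 for the same ratio. In the other direction, Cd47, the signal that protects cells from phagocytosis, was at 5.62 RPKM in F10 and 10.2 in T cell medium, which gave a fold of 1.81 (1.6 to 2.05). Itgb5, an integrin subunit that binds vitronectin, was at 4.15 and 7.46 RPKM, a fold of 1.80 (1.5 to 2.15). Cd200, which encodes a ligand of an inhibitory receptor on myeloid cells, was level at 19.3 and 19.1 RPKM. Pvrl3 and Cxadr, which encode the adhesion proteins nectin-3 and the coxsackievirus and adenovirus receptor, were at 5.97 and 4.87 RPKM and at 4.17 and 3.36 RPKM.

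Secreted ligands and guidance molecules went both ways. Of 14 in the stretches, 2 were at least 2-fold higher, none was at least 2-fold lower, and the median was -0.01. That median depends on the genes taken, since 7 of the 14 were under 1 RPKM in both libraries. It was 0.61 over the 7 at 1 RPKM or more and -0.40 over the 4 at 5 RPKM or more. Sema3d, a secreted semaphorin, was at 1.44 RPKM in F10 and 4.09 in T cell medium (132 and 342 reads), which gave a fold of 2.85 (2.33 to 3.52). Epha3, an ephrin receptor, was at 1.25 and 3.70 RPKM (100 and 268 reads), a fold of 2.95 (2.34 to 3.76). Ephb3, another receptor of this family, was at 1.89 and 3.40 RPKM (1.80, 1.48 to 2.19), while the ligand Efnb2 was at 28.9 and 23.1 RPKM, 1.25-fold higher in F10 medium (1.16 to 1.34). Gas6 and Pros1 encode the 2 vitamin K-dependent ligands of the TAM receptor kinases and differed in opposite directions. Gas6 was at 87.7 RPKM in F10 and 51.3 in T cell medium, 1.71-fold higher in F10 medium (1.61 to 1.82), and Pros1 was at 3.17 and 6.31 RPKM, 1.99-fold higher in T cell medium (1.67 to 2.41). Chrd, which encodes the BMP antagonist chordin, was below 1 RPKM in both, with 13 reads in F10 and 68 in T cell medium (5.77, 3.16 to 11.4). The neuropeptide gene Gal was at 20.8 and 14.6 RPKM. Slit receptor Robo1 was at 4.69 and 5.34 RPKM, and the growth factor gene Pdgfd at 0.747 and 0.448.

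**Figure D3:**
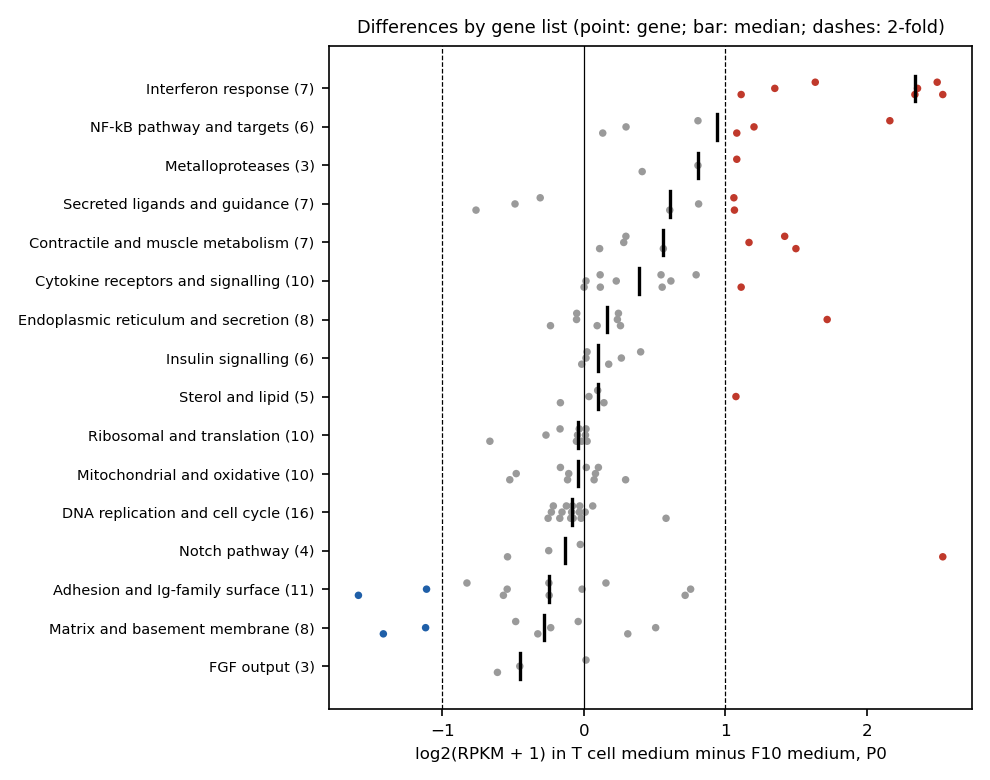
Each point is 1 gene of a list, placed on the x axis by its log2(RPKM + 1) difference between T cell and F10 medium, for lists with at least 3 genes at 1 RPKM or more. The y axis names each list with that number, black bars are medians of the genes shown, and dashed lines mark 2-fold. These medians leave out genes under 1 RPKM in both libraries, so they can differ from medians over all listed genes in the stretches. The 7 interferon response genes shown lie between 1.11 and 2.54, but 5 of them reached 1 RPKM only in T cell medium and so had to differ, and 3 under 1 RPKM in both libraries are not drawn (the median over all 10 was 1.49). Of the NF-κB genes shown, 3 of 6 reached 1 RPKM only in T cell medium, as did 2 of 3 metalloprotease genes. Those 2, Mmp3 and Mmp13, are on both lists. The 16 DNA replication and cell cycle genes lie between -0.25 and 0.58.

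The Notch pathway keeps satellite cells undifferentiated through HES and HEY repressors. Hes1 was at 17.4 and 16.3 RPKM in the F10 columns and 11.3 in both T cell columns, 1.49-fold higher in F10 medium (1.29 to 1.73). Hey1 was at 7.81 and 6.42 RPKM (244 and 182 reads), with an interval of 0.999 to 1.48 for the same ratio. Poglut1, which adds the O-glucose that Notch receptors need, was level at 15.3 and 15.0 RPKM. The 1 gene of the 4 listed in the stretches that was at least 2-fold higher was Dtx3l, listed as a Deltex homologue and described with the interferon response. Of the genes downstream of FGF, Etv5 was at 13.1 RPKM in F10 and 9.32 in T cell medium, 1.41-fold higher in F10 medium (1.26 to 1.58), and the AP-1 subunit gene Fosl1 at 14.6 and 9.21 RPKM, 1.58-fold higher (1.33 to 1.90). Fosl1 shares 57.2% of its exon bases with a neighbouring gene, so its reads are uncertain. FGF was added to T cell medium, and whether F10 medium held any is not given.

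Genes of DNA replication and the cell cycle were nearly level. Of 16 in the stretches, none was 2-fold apart in either direction and the median was -0.08. That count is near the shares over all rows (1.56% higher and 0.529% lower), so only the median and the levels describe this group. Mcm4, a subunit of the replicative helicase, was at 65.9 RPKM in F10 and 68.9 in T cell medium. Cdc45, which activates that helicase, was at 23.5 and 22.1 RPKM, Pola2, a subunit of the priming polymerase, at 22.6 and 22.3, and Cdca5, which holds sister chromatids together, at 18.7 and 16.5. Cdk6 stood apart from them. This kinase of the G1 phase was at 10.1 RPKM in F10 and 15.5 in T cell medium (532 and 744 reads), which gave a fold of 1.54 (1.38 to 1.73).

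Most housekeeping groups were level as well. None of 10 genes listed for ribosomes and translation was 2-fold apart (median -0.04), with Eif4g1 at 149.6 and 150.7 RPKM. Cct8, a chaperonin subunit gene on the same list, was at 92.5 and 93.4 RPKM. Mrps6 differed from these, at 30.6 and 18.9 RPKM. It shares 19.9% of its exon bases with other genes, Slc5a3 among them, whose start lies 52 bases away. None of 10 mitochondrial genes was 2-fold apart (median -0.05), with Ndufv1 at 53.7 and 54.4 RPKM. The 2-fold counts of the translation and mitochondrial genes are near the shares over all rows (1.56% higher and 0.529% lower). Insulin signalling genes had a median of 0.10 over 6, and Insr, the receptor, was at 4.49 RPKM in F10 and 6.25 in T cell medium (1.39, 1.25 to 1.55). Of 8 genes of the endoplasmic reticulum and secretion, 1 was at least 2-fold higher, Tvp23a, which encodes a Golgi membrane protein, at 1.10 and 5.91 RPKM (62 and 302 reads), a fold of 5.38 (4.08 to 7.18). It shares 33.8% of its exon bases with a neighbour. The chaperone genes Dnajb11, at 34.5 and 41.5 RPKM, and Sdf2l1, at 15.4 and 18.3, differed by less than 1.3-fold. In sterol metabolism Cyp51, the lanosterol demethylase of cholesterol synthesis, was at 9.84 RPKM in F10 and 21.8 in T cell medium (598 and 1201 reads), which gave a fold of 2.22 (2.01 to 2.45). The other 5 genes of that list in the stretches were not 2-fold apart, such as Cpt1a, which imports fatty acids into mitochondria, at 44.8 and 39.8 RPKM.

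The remaining genes with 2-fold differences belong to none of the groups above. Steap1, a metalloreductase gene of the family of Steap4, was at 20.9 RPKM in F10 and 47.3 in T cell medium (407 and 835 reads), which gave a fold of 2.26 (2.01 to 2.55). Its neighbour Steap2, whose start lies 54.7 kb away, was just short of 2-fold on the log2(RPKM + 1) scale (0.97), at 6.39 and 13.5 RPKM. Pla1a, a phospholipase that acts on phosphatidylserine, was at 0.413 and 1.89 RPKM (12 and 48 reads) and just past it (1.03). Below it also lay Cdc42ep2 (0.99), at 1.11 and 3.18 RPKM, and Unc93b1 (0.88), which brings nucleic acid-sensing Toll-like receptors to endosomes, at 3.69 and 7.61 RPKM. Zeb1, a transcriptional repressor, was at 5.19 and 10.1 RPKM (0.84). Among the lower genes, Slc5a3, the sodium-coupled importer of myo-inositol that responds to osmotic stress, was at 12.2 RPKM in F10 and 4.48 in T cell medium (1888 and 626 reads), 2.73-fold higher in F10 medium (2.50 to 3.00). Cst6, a cysteine protease inhibitor, was at 4.88 and 1.42 RPKM (274 and 72 reads), 3.45-fold higher (2.65 to 4.54). Ctsw, a protease gene known from cytotoxic lymphocytes, was at 3.46 and 3.17 RPKM in the F10 columns and 0.182 and 0.132 in the T cell columns, or 58 and 2 reads (21.1, 6.96 to 222). Just short of 2-fold lower were Tiam2 (-0.92), an activator of Rac, at 28.1 and 14.4 RPKM, Stmn2 (-0.92) and Gal3st3 (-0.86). Further below 2-fold were Zfhx4 at 6.49 and 3.52 RPKM, Tbx1 at 13.6 and 8.08, Masp1 at 26.1 and 16, and Rin1 at 16.6 and 10.1.

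Markers of other cells were few in the named stretches. T cell medium could carry T cell RNA, and 4 of 13 listed T cell markers could be read. Their summed level was 1.11 RPKM in F10 and 1.94 in T cell medium. Trat1, an adaptor of the T cell receptor, was at 0 in both. Btla, an inhibitory receptor of lymphocytes, had 10 reads in F10 and 47 in T cell medium (0.217 and 1.12 RPKM; 5.18, 2.59 to 11.5). Tigit had 8 and 6 reads, and Ptprcap, which lies wholly within exons of other genes, 4 and 4. Ctsw, expressed in cytotoxic T cells and lower in T cell medium as given above, is not on that list and was named after its values were seen. The defining genes of T cells, such as those of the CD3 chains, lie outside the stretches, and the part of carried-over RNA in these results was not tested. Of 4 markers of antigen presenting cells, Cd86 was at 0 in both and Hcls1 had 2 reads or fewer, and the summed level was 5.25 RPKM in F10 and 1.71 in T cell medium. Cd80 made up 5.2 RPKM of it in F10 medium, while in T cell medium it was shared by Cd80 (1.05 RPKM) and Ciita (0.637 RPKM). The 2 adipocyte markers read, Adipoq and Retn, were at most at 0.0494 RPKM. Of the nerve and glia markers, Gap43 was level at 2.44 and 2.46 RPKM, and Stmn2 was at 2.36 and 0.777 RPKM. Myh11, a smooth muscle myosin, had 38 and 12 reads (0.400 and 0.137 RPKM). The fibroblast markers Ccdc80, Cd248 and Abi3bp summed to 2.29 and 1.56 RPKM. Their part in the matrix results was not tested.

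The same genes can be read in the other libraries, where T cell medium was kept to P15. F10 medium was sampled at P0. Cytokine medium at P0, which was F10 medium with 15% FBS, IL-1α and IL-13 at 5 ng/ml, TNF-α and IFN-γ at 10 ng/ml, and FGF at 2.5 ng/ml, is set against the same F10 library, so its values are given side by side only. Dtx3l was at 6.52, 9.19 and 7.10 RPKM in T cell medium at P1, P2 and P15, and at 13.1 in cytokine medium at P0. Parp14 was at 6.19, 7.72 and 6.35 RPKM in the later T cell libraries and at 20.6 in cytokine medium at P0. Casp12, by contrast, was at 7.86, 12.3 and 10.9 RPKM in the later T cell libraries and at 6.54 in cytokine medium at P0. Socs1 stayed at 16.7, 15.7 and 13.3 RPKM and was at 40.1 in cytokine medium, and Nfkbiz was at 12.7, 24.7 and 26.8 RPKM and at 16.5. These genes were named for being low in the single F10 library, which is the reference for every value here, so that their standing above it is in part set by that choice. All 5 were at a higher level in cytokine medium than in T cell medium at P0.

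Muscle genes did not follow that course. Actn3 was at 50.8, 115.5 and 10.5 RPKM in T cell medium at P1, P2 and P15, and at 14.7 in cytokine medium at P0. Myom2 was at 6.42, 16.3 and 1.62 RPKM, and at 1.49. Srl was at 33.4, 63.3 and 5.85 RPKM, and at 9.22. All 3 were above their F10 level at P1 and P2 and below it at P15 and in cytokine medium. Sema3d was at 6.05, 26.0 and 2.55 RPKM in the later T cell libraries and at 0.265 in cytokine medium.

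Of the lower genes, Col4a1 was at 9.23, 15.0 and 19 RPKM in T cell medium at P1, P2 and P15, and at 5.35 in cytokine medium at P0, all below the 36.8 of F10 medium. Cd80 was at 2.06, 3.19 and 4.10 RPKM, and at 1.07. Ctsw was at 0, 0.283 and 0.107 RPKM, and at 1.26. Igsf11, at 6.51, 5.21 and 3.63 RPKM, reached its F10 level of 6.41 RPKM at P1, and Slc5a3, at 9.77, 3.15 and 7.80 RPKM, came near its F10 level of 12.2 at P1. Stmn2, lower in T cell medium at P0, was at 8.01, 14.9 and 16.8 RPKM later. Mmp3, higher at P0, was at 0.162, 0.0354 and 0.0736 RPKM later, below its F10 level of 0.313. For Stmn2 and Mmp3 the order of F10 and T cell medium at P0 was therefore not that of the later T cell libraries. With 1 library for each medium and passage, the spread of cultures is not known.

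**Figure D4:**
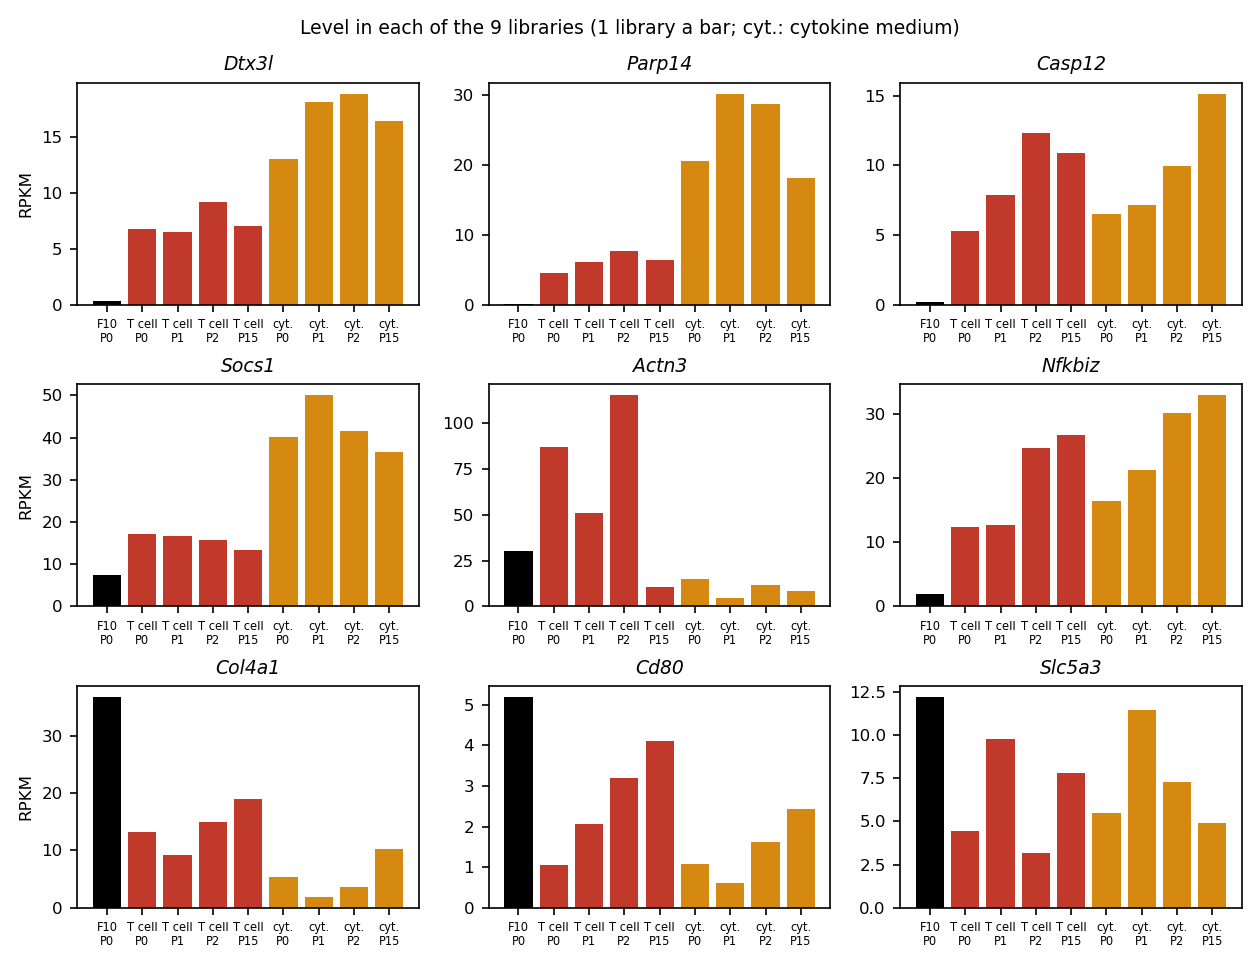
Bars give the RPKM of 9 genes (1 panel each, y axis from 0) in the F10 library at P0 (black), the T cell libraries at P0, P1, P2 and P15 (red) and the cytokine libraries at the same passages (orange), with 1 library for each bar and no error bar. Dtx3l, Parp14, Casp12, Socs1 and Nfkbiz are lowest in F10 medium, Col4a1, Cd80 and Slc5a3 are highest in it, and Actn3 is highest in T cell medium at P0 and P2.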

How the data were processed

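Libraries were made from total RNA with a TruSeq kit, per the labels' protocols. The authors deposited 1 table of RPKM values, per the file headers, with 2 columns for each of 9 libraries and 0 columns without a sample. Per the submitters' processing notes, TopHat2 2.0.1, HTSeq 0.5.4p2 and the build mm10 were used, with no role stated for any of them. No source used here gives the gene annotation, strand setting or scaling, and a table of RPKM with 1 library for each medium allows no count test.

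The columns of a library were averaged. Rows were matched by identifier to GENCODE vM21 (11105 of 11148), and positions are those of that annotation on GRCm38 (mm10). Genes were named below 92.1 Mb on chromosome 16, 6.4 Mb on 19, 15.1 Mb on 8, 7.9 Mb on 9, 12.6 Mb on 5, 10.2 Mb on 3, 6.3 Mb on 18 and 5.9 Mb on 17, at 1 RPKM or more in 1 of the 2 libraries. A name carried by 2 rows, a joint name or a pseudogene was not used, which left 520 of the 529 genes to name. Differences are log2(RPKM + 1) in T cell minus F10 medium, which understates the change of scarce genes, and 2-fold was the threshold. Reads came from the steps of the RPKM values. In 9276 rows, which hold 98.07% of all values above 0, every value was a whole multiple of 1 read, within a tolerance of 0.02 of a read. In rows with over 300 reads the implied gene length was a whole number of bases in 100% of cases. Depth had been chosen to make such lengths whole, so that share was in part fixed in advance. In the named stretches the median ratio of implied length to GENCODE exon length was 0.99. Of the 529 genes, 76 share over 10% of their exon bases with another gene.

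The genes named were the 15 with the largest and the 15 with the smallest difference at 5 RPKM or more, every member of 23 gene lists in the stretches, and the 3 just inside and just outside 2-fold each way. Other genes past 2-fold were named after their values were seen. The members and lists were chosen with earlier results of these data known. Alternatives were the pseudocount, the filter, the scaling (same sum, TMM, quantile), single columns, the 1.5-fold threshold and chromosome 16 left out. Python 3.11.15, numpy 2.4.6, scipy 1.17.1 and pandas 2.3.3 were used, and the scripts were tested on simulated data.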

Additional observations from a re-analysis of the deposited data

How the results depend on the processing

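The count of 19 higher genes was 26 at a pseudocount of 0.1 RPKM, 12 with a filter of 5 RPKM and 9 with chromosome 16 left out. It was 38 at a 1.5-fold threshold and 11 with 1 RPKM asked of both libraries. The count of 7 lower genes was 12 at a pseudocount of 0.1 RPKM, 4 with chromosome 16 left out and 20 at 1.5-fold. The median of the 7 interferon response genes at 1 RPKM or more, 2.34, was 3.92 at a pseudocount of 0.1 RPKM, 1.49 with no filter, 1.64 with the filter taken over all 9 libraries, 1.85 with chromosome 16 left out (2 genes) and 1.37 with 1 RPKM asked of both libraries (2 genes). The requirement on both libraries, and leaving out genes with over 10% exon overlap, were chosen after seeing the data. Rescaling to the same sum, TMM, quantile normalization and either single column moved none of these values by over 1.5 times. The 3 scalings moved the median of all rows by at most 0.0485. Of the 26 genes past 2-fold, none changed sign under the alternatives, which is no check, since each lay at least 1 from 0 on the log2 scale. Single genes, 131 of them, were rerun only under the other pseudocount, the 3 scalings and the single columns. There were 23 changes of sign, all in genes less than 2-fold apart. At settings other than the pseudocount, a named gene moved by at most 0.18 on the log2 scale. Fewer genes are tested where chromosome 16 or scarce genes are left out, and for the rest the cause was not tested. No paired analysis was possible because each medium has 1 library at P0.

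Depth limits the scarce genes. Below 5 RPKM the median counting error was 0.117 on the log2 scale, against 0.0497 at 20 RPKM or more, and Batf2, Steap4 and Ciita rest on about 1 read in F10 medium. The spread between cultures is not known.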
